A study of Mus musculus with 54 samples.

Results

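The 10 genes described here encode heat shock chaperones, the proteins that keep other proteins folded. They were taken as a list out of 33126 genes listed in the series. The list was split into 6 inducible members (Hspa1a, Hspa1b, Dnajb1, Hsph1, Hspb1 and Hsp90aa1) and 4 constitutive members (Hspa8, Hsp90ab1, Hspd1 and Hspe1), and was followed through every way in which mouse kidney was dissociated and stored. Male AFAPIL.1DEL C57BL/6J mice aged 19 weeks, of a single litter, gave kidneys that were digested either on ice with a cold-active protease from Bacillus licheniformis or at 37 °C with the Multi-tissue kit 2 (warm). Each suspension was profiled fresh, after 6 weeks of cryopreservation in medium with serum and DMSO, and after 3 months in methanol, with bulk RNA-seq of the cells left over. Male Balb/c littermates aged 18 weeks gave cold-dissociated fresh cells, nuclei of the workflow SN_FANS_3x500g (nuclei sorted by fluorescence) and bulk RNA-seq of intact flash-frozen kidneys. Female Balb/c mice aged 15 weeks, all former breeders, gave cold-dissociated cells, fresh or after 2 weeks of cryopreservation, bulk RNA-seq of cold suspensions and of intact kidneys, and nuclei of SN_FANS_3x500g, SN_FANS_1x2000g and SN_sucrose. Every condition had 3 libraries from 3 mice, 18 conditions in all.

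Heat shock proteins work in relays. Hspa1a and Hspa1b encode near-identical cytosolic HSP70 proteins that are made on stress, and Hspa8 encodes their constitutive relative HSC70. Dnajb1 encodes an HSP40 J-protein that hands clients to HSP70, Hsph1 encodes HSP110, which exchanges the nucleotide of HSP70, and Hspb1 encodes the small heat shock protein HSP25, which holds unfolded proteins and binds actin. Hsp90aa1 and Hsp90ab1 encode the inducible and the constitutive cytosolic HSP90, which mature kinases and receptors. Hspd1 and Hspe1 encode HSP60 and its lid HSP10, the folding chamber of the mitochondrial matrix. On stress the factor HSF1 binds repeats of the pentamer nGAAn, called heat shock elements, upstream of many of these genes.

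Hspa1a (chr17:34969190-34972156 of GRCm38) and Hspa1b (chr17:34956436-34959238) lie side by side on the minus strand, and each is a single exon with 0 intronic bases. Hspb1 (chr5:135887919-135889563, plus strand) has 2 exon blocks. Of the 10 members, 7 had a promoter entry in the RefSeq table of GRCm38.p6, with a window of 250 bases before and 50 after each start listed for the gene. A heat shock element of 2 units (GAANNTTC or TTCNNGAA, each its own reverse complement, searched on both strands) was found in any window of 6 of these 7 genes, against 17.0% of all 27025 genes in the table. An element of 3 units (GAANNTTCNNGAA or TTCNNGAANNTTC, which contains elements of 2 units) was found in 3 of the 7 genes, against 0.662% of all genes, and the windows of Dnajb1 held none of either kind. These matches describe the letters of the windows and were not set against binding data. The 250 bases before the start of the genes that changed most (Hspa1a, Hspa1b and Hspb1) and 30 bases around the elements of 3 units of Hspd1, Hspe1 and Hsph1 are shown 5′ to 3′ on the gene's own strand, with the element in capitals.
Hspa1a, chr17:34972157-34972406: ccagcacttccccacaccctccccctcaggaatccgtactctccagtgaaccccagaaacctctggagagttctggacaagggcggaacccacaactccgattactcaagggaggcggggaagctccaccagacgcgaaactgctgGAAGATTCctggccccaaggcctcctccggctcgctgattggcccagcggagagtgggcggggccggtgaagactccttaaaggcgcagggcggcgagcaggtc
Hspa1b, chr17:34959239-34959488: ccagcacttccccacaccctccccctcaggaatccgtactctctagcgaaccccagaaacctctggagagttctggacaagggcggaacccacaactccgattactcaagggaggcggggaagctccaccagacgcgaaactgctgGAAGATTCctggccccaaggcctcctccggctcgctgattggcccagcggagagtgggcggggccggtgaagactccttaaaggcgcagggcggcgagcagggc
Hspb1, chr5:135887669-135887918: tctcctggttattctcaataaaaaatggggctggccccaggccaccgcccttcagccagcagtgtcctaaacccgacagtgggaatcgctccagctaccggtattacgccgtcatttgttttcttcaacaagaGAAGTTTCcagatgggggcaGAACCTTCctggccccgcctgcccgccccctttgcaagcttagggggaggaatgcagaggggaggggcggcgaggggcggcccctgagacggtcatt
Hspd1, chr1:55088055-55088084: gcggggccTTCCGGAAGGTTCTAGAAcgga
Hspe1, chr1:55088051-55088080: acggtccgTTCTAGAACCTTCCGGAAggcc
Hsph1, chr5:149636287-149636316: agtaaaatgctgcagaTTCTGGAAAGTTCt

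The promoters of Hspa1a and Hspa1b were identical at 247 of 250 bases. They differed by C44T, T47C and T249G, counted from 1 at the 5′ end with the base of Hspa1a first, and their elements began 104 bases before the start in both. Hspb1 carried elements 117 and 97 bases before its start. Hspd1 (minus strand) and Hspe1 (plus strand) are transcribed away from each other, and the element printed for each is the same stretch of DNA read on opposite strands. The exons of Hspd1 and Hspe1 share 112 bases on opposite strands, so bulk reads there are uncertain between these genes. The printed element of Hsph1 lies after its start. That of Hspd1 lies before a listed start but after the annotated 5′ end of the gene (55088243), and the window at that end held 0 elements.

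Bulk RNA-seq of the leftover suspensions showed which members differed between the digestions. Warm and cold digestion differ in enzymes and handling as well as temperature, and these cannot be told apart. All 6 inducible members were higher in warm than in cold suspensions. Of the 4 constitutive members 0 were higher or lower, at an adjusted or at an unadjusted p under 0.05 in edgeR and in DESeq2, which called 4 of the inducible members. Over the 14102 genes tested, 5.42% were higher and 3.26% lower at an adjusted p of at most 0.05 (quasi-likelihood test of edgeR, Benjamini-Hochberg adjustment), the threshold used throughout. The median log2 fold change was 1.62 over the inducible members, 0.03 over the constitutive members and -0.01 over all genes.

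Hspa1a read counts, scaled by the library total to CPM, were 7.21, 4.36 and 6.35 in the cold and 129, 131 and 235 in the warm suspensions, a log2 fold change of 4.73 ± 0.27 (SE, n = 3 and 3, adjusted p = 3.09e-07, edgeR). Hspa1b rose from 6.35, 6.37 and 7.31 to 78.1, 88.8 and 174 CPM, by 4.07 ± 0.31 on the log2 scale (adjusted p = 5.83e-06, edgeR). For both HSP70 genes the lowest warm library stood far above the highest cold library. Reads of these genes are partly interchangeable, since 38.1% of the 150-base windows of the Hspa1a transcript also occur in Hspa1b, and Hspa1a shares 564 exon bases with Gm20481 on the opposite strand.

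Hspb1 rose from 5.25, 6.53 and 6.83 to 19.9, 20.8 and 31.6 CPM (log2 1.95 ± 0.209, adjusted p = 0.000126, edgeR). Dnajb1 rose from 23.1, 27.8 and 31.4 to 56.5, 62.9 and 85.1 CPM (1.29 ± 0.159, adjusted p = 0.000368, edgeR). These 2 genes therefore also separated the warm from the cold libraries without overlap, at smaller folds than the HSP70 pair.

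Hsph1 and Hsp90aa1 moved least among the inducible members. Hsph1 was at 108, 119 and 164 CPM in cold and 170, 197 and 299 CPM in warm suspensions (0.74 ± 0.197, adjusted p = 0.0357, edgeR), and Hsp90aa1 at 276, 316 and 369 and at 420, 460 and 582 CPM (0.58 ± 0.131, adjusted p = 0.017, edgeR). In both the groups did not overlap. Their calls were lost under DESeq2 (adjusted p = 0.219 and 0.0727) and without cold replicate 1, cold replicate 2 or warm replicate 3 (edgeR adjusted p up to 0.127 for Hsph1 and up to 0.0677 for Hsp90aa1).

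The constitutive members moved little. Hspa8 was at 1615, 1681 and 2024 CPM in cold and 1741, 1536 and 2076 CPM in warm suspensions (-0.02 ± 0.122, adjusted p = 0.95, edgeR). Hsp90ab1 differed by 0.08 (adjusted p = 0.708) and Hspd1 by -0.09 (adjusted p = 0.578, both edgeR). Hspe1 was at 71.1, 79.6 and 77.8 CPM in cold and 80.6, 82.2 and 94.2 CPM in warm suspensions, without overlap, yet did not pass the test (0.15 ± 0.0859, adjusted p = 0.364, edgeR).

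Per kilobase of exon, which allows genes to be compared, the order in cold C57BL/6J suspensions ran from Hspa1a (2.01 ± 0.493 CPM per kb, SD, n = 3) and Hspa1b (2.38 ± 0.195), which did not differ beyond their spread, through Hspb1 (6.02 ± 0.812), Dnajb1 (8.57 ± 1.31), Hsph1 (17.9 ± 4.1), Hspe1 (51.7 ± 3.03), Hsp90aa1 (81.5 ± 11.9) and Hspd1 (158 ± 9.53) to Hsp90ab1 (265.7 ± 16.8) and Hspa8 (412 ± 51.0). In warm suspensions Hspa1a stood at 55.6 ± 20.6 and Hspa1b at 40.6 ± 18.7 CPM per kb. The share of Hspa1b in the summed per-kilobase level of the HSP70 pair was 54.6 ± 6.24% in cold and 41.6 ± 2.4% in warm suspensions. In the 10x libraries the share of Hspa1b in the UMIs of the pair over all barcodes, which is not per kilobase, was 30.6 to 49.5% in cold fresh and 5.85 to 11.2% in warm fresh libraries, well below the bulk share after warm digestion. The share of Hsp90aa1 in the HSP90 pair was 23.4 ± 1.48% in cold and 30.2 ± 1.96% in warm. Each difference between the bulk groups had an exact two-sided permutation p = 0.1, the smallest that 3 against 3 libraries can give.

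**Figure D1:**
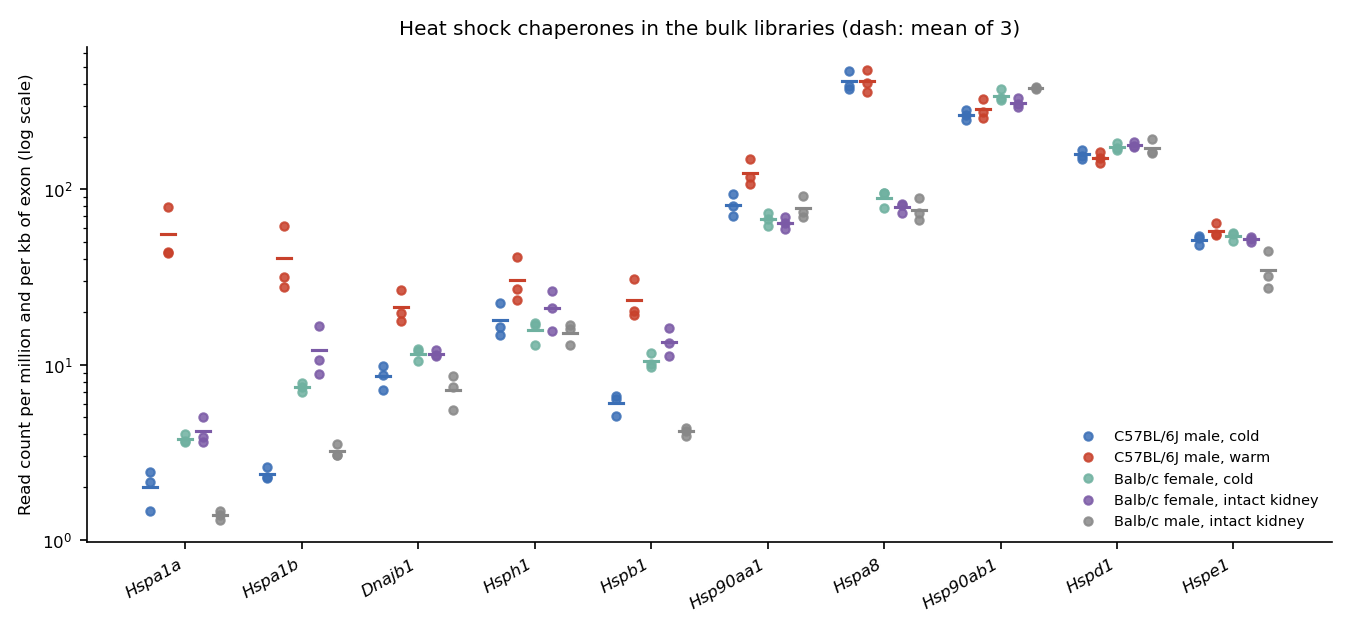
Read counts as CPM per kilobase of exon (log scale) of the 10 members in the 15 bulk libraries, a point for each library and a dash for the mean of 3. The 3 warm points of Hspa1a, Hspa1b, Dnajb1, Hspb1, Hsph1, Hsp90aa1 and the constitutive Hspe1 lie above the 3 cold C57BL/6J points. For Hspa8, Hsp90ab1 and Hspd1 the warm and cold points overlap. Hspa8 is lower in every Balb/c library than in every C57BL/6J library.

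A bulk level mixes the expression of each cell with the number of cells, and fewer cells of a type cannot be told apart there from less RNA per cell. Markers of the distal nephron moved with warm digestion. Of the ascending limb markers 6 of 9 were higher, of the distal and connecting tubule markers 8 of 9, of the principal cell markers 7 of 9 and of the intercalated cell markers 10 of 12, as was 1 of 12 T cell markers, while 9 of 12 B cell, 6 of 10 mural, 4 of 10 podocyte, 3 of 12 proximal tubule, 2 of 12 endothelial, 2 of 11 macrophage and 1 of 10 NK cell markers were lower. Their part in the bulk result was not tested, but the 10x libraries gave each member's level within a class.

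The 39 10x libraries held 983522 to 35170947 unique molecular identifiers (UMIs, counted transcript molecules) and 175959 barcodes, and the 15 bulk libraries 2326998 to 31093949 reads. A barcode was gated to a class by its markers alone, with at least 3 markers of the class detected and a lead of at least 2 over the next class. Proximal tubule markers did not count in this lead, so a barcode with many of them could still enter another class. For proximal tubule the gate took at least 4 of its markers and at most 1 marker of every other class. This placed 124586 barcodes (70.8%) in 12 classes. A class is a range of marker detection and not a type. The share of its barcodes that lay next to the gate was from 7.79% (podocyte-like) to 26.7% (principal-like) in 10 classes, but 47.7% in distal/connecting-like and 58.0% in NK-like barcodes. At most 2.05% of the barcodes of a library were shared with another library. Values are CPM here too, of the UMIs summed over a class in a library with mitochondrial genes left out, and classes with at least 10 barcodes in at least 2 libraries of each group were tested.

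In fresh cold-dissociated C57BL/6J cells, where the inducible members were low, several members still differed between classes. Hspb1 was at 569 ± 79.9 CPM in endothelial-like and 536 ± 116 CPM in mural-like cells, against 65.3 ± 27.0 CPM in podocyte-like, 5.65 ± 0.899 CPM in proximal tubule-like and 3.12 ± 2.83 CPM in macrophage-like cells (SD, n = 3). Hspe1 was at 1304 ± 17.7 CPM in proximal tubule-like, 710 ± 17.1 CPM in distal/connecting-like and 242 ± 76.8 CPM in endothelial-like cells, and Hspd1 followed at 508 ± 53.2, 257 ± 55.3 and 114 ± 30.0 CPM. The mitochondrial pair was thus highest in the proximal tubule-like class among these 3, beyond the spread of the libraries. Hspa8 was at 2196 ± 442 CPM in proximal tubule-like and 843 ± 272 to 1269 ± 242 CPM in the B-like, macrophage-like and distal/connecting-like cells, while Hspa1a stayed at or under 124 CPM in every library of the classes compared next.

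Warm against cold digestion of fresh cells was compared in 9 classes, which gave 90 pairs of member and class. Of the 54 inducible pairs 21 were higher, of the 36 constitutive pairs 6 were higher, and 0 pairs were lower (0 also at an unadjusted p under 0.05, and 0 by DESeq2, which called 26 higher). Over all tested pairs of gene and class, 2.8% were higher and 1.71% lower. These percentages, here and in the later comparisons, are of the pairs that passed a filter on low counts, which 67 of the 90 member pairs did, 32 of them inducible. Of the 27 calls 19 were made under every alternative setting. Pairs with 0 to 3 UMIs in the cold libraries, among them Hspa1a and Hspa1b in macrophage-like cells, passed the filter only through the warm libraries and could not have been called lower, so their counts are set in part by the filter, here and in the later comparisons.

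Hspa1a was the member that rose in all 9 classes. In endothelial-like cells it went from 12.3, 5.42 and 6.00 CPM in cold to 4457, 2758 and 3784 CPM in warm libraries, by 8.96 ± 0.307 on the log2 scale (adjusted p = 3.55e-10, edgeR). In macrophage-like cells it went from 0, 3.83 and 7.47 CPM, 3 UMIs in all, to 4954, 3064 and 6381 CPM, 2706 UMIs in all, a ratio of 1010 with a 95% counting interval of 347 to 4920. No cold library of either class came near a warm library.

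Lymphocyte-like cells did the same from a base at or near 0. Hspa1a in T-like cells went from 17.0, 0 and 0 CPM (1 UMI) to 1197, 741 and 2838 CPM (314 UMIs), a ratio of 361 with an interval of 64.3 to 14300. In B-like cells 0 UMIs in cold stood against 220 UMIs in warm libraries, at least 108-fold higher when the cold group is set to 3 counts, with warm values of 1785, 639 and 3336 CPM.

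The tubule classes rose less. Proximal tubule-like cells went from 1.55, 0.375 and 3.34 to 38.1, 125 and 95.1 CPM of Hspa1a (5.66 ± 0.528, adjusted p = 3.64e-05), and ascending limb-like cells from 0, 43.1 and 14.2 to 121, 370 and 834 CPM (4.25 ± 0.697, adjusted p = 0.00147, both edgeR). Hspa1a rose in intercalated-like cells from 9.28, 27.6 and 44.2 to 267, 340 and 226 CPM (3.23 ± 0.387, adjusted p = 6.65e-06) and in principal-like cells from 104, 100 and 124 to 710, 202 and 1513 CPM (2.80 ± 0.465, adjusted p = 0.000475, both edgeR). The change was smallest in distal/connecting-like cells, from 35.2, 35.5 and 24.3 to 71.8, 66.1 and 205 CPM (1.67 ± 0.469, adjusted p = 0.031, edgeR), and that call was lost in 4 of 11 alternatives (adjusted p up to 0.104).

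Ordered by the warm level, Hspa1a stood at 4800 ± 1664 CPM in macrophage-like, 3666 ± 856 in endothelial-like, 1920 ± 1354 in B-like, 1592 ± 1103 in T-like, 808 ± 661 in principal-like, 442 ± 362 in ascending limb-like, 278 ± 58.0 in intercalated-like, 114 ± 78.8 in distal/connecting-like and 85.9 ± 43.9 CPM in proximal tubule-like cells (SD, n = 3). Neighbors in this order overlapped in their libraries, except for intercalated-like and distal/connecting-like cells (226 to 340 against 66.1 to 205 CPM), and the first pair and the last pair of classes did not overlap in any library. This order is a description of the classes, which differ in depth and in free RNA, and no test was made of it.

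**Figure D2:**
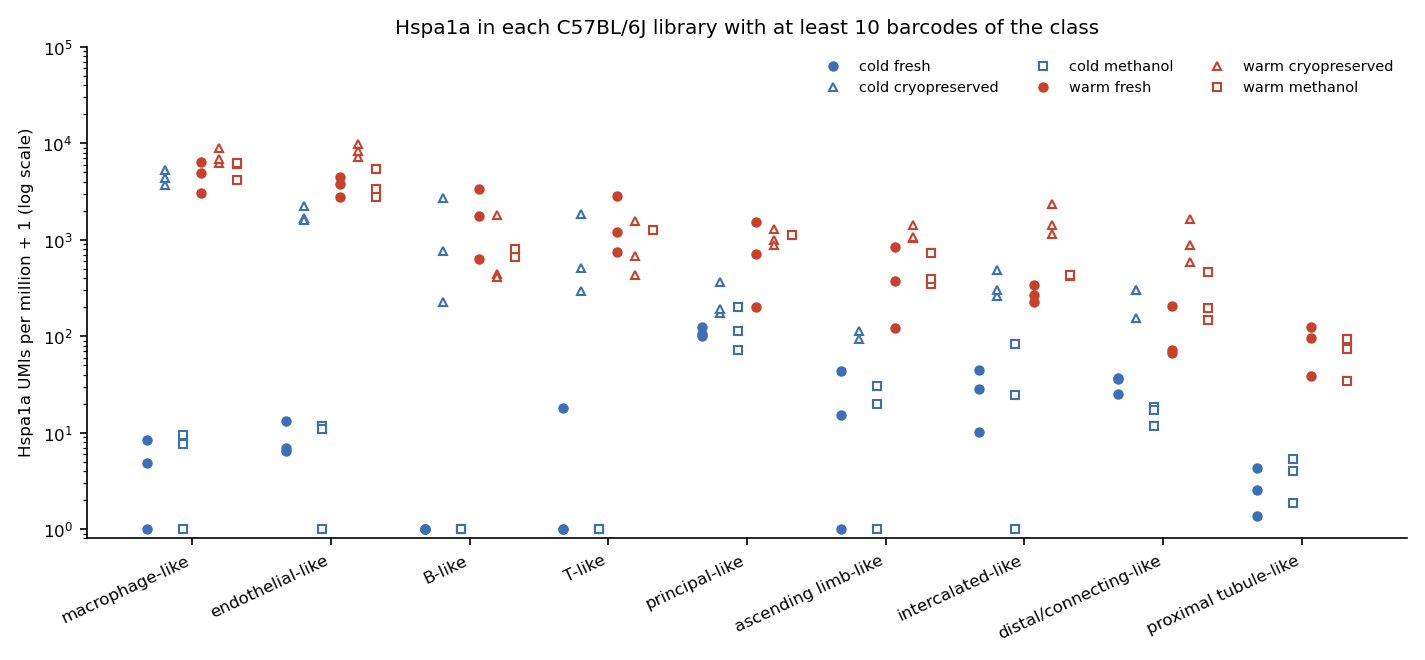
Hspa1a level (CPM of UMIs) plus 1 (log scale) in each C57BL/6J library with at least 10 barcodes of the class, for cold (blue) and warm (red) dissociation, with filled circles for fresh, triangles for cryopreserved and squares for methanol-fixed cells. In endothelial-like cells the cold fresh points lie at 5.42 to 12.3 and the cold cryopreserved points at 1594 to 2246 CPM, next to warm fresh points of 2758 to 4457 CPM.

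The partners of HSP70 followed in part of the classes. Dnajb1 rose in endothelial-like cells from 36.9, 35.2 and 36.0 to 159, 110 and 241 CPM (2.20 ± 0.325, adjusted p = 0.00145) and in macrophage-like cells from 16.5, 19.2 and 7.47 to 389, 252 and 864 CPM (5.14 ± 0.549, adjusted p = 2.25e-05, both edgeR). It also rose in principal-like, T-like and B-like cells (log2 3.00, 3.94 and 4.68), and in those 5 classes no warm library fell within the cold range. Hsph1 was called in 0 of 9 classes by edgeR (0 at an unadjusted p under 0.05, and 0 by DESeq2) and passed the filter in 3 of them, with log2 fold changes of -0.37 to -0.13, although without the filter it was called in macrophage-like cells (2.64, adjusted p = 0.00555, edgeR). Hspa1b rose from 2 to 167 UMIs in endothelial-like cells (ratio 83.6, interval 22.8 to 696) and from 1 to 141 UMIs in macrophage-like cells (ratio 159, interval 28.0 to 6310). Without the filter Hspa1b was also called in ascending limb-like (2.57), intercalated-like (2.41), T-like (6.59) and B-like cells (6.14), and Dnajb1 in ascending limb-like (2.96) and distal/connecting-like cells (2.06).

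Hspb1 was called in 1 of the 9 classes, in endothelial-like cells, where it rose from 516, 529 and 660 to 2174, 1889 and 2247 CPM (1.90 ± 0.166, adjusted p = 8.59e-06, edgeR). Endothelial-like cells were already the class with a high cold level among those tested. Hspb1 did not pass the filter in macrophage-like cells, where it was at 5.51, 3.83 and 0 CPM in cold and 14.9, 46.9 and 57.6 CPM in warm libraries, and without the filter it was called there (3.69, adjusted p = 0.000342, edgeR). In proximal tubule-like cells it passed the filter and was not called.

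Hsp90aa1 rose in endothelial-like cells from 86.0, 89.5 and 132 to 832, 537 and 915 CPM (2.86 ± 0.246, adjusted p = 7.95e-06) and in macrophage-like cells from 71.6, 115 and 157 to 889, 685 and 1210 CPM (3.04 ± 0.303, adjusted p = 1.15e-05, both edgeR). It rose by 1.72 in T-like and by 1.11 in B-like cells, the latter with an adjusted p of 0.0434 (edgeR) and a call in 3 of 12 alternatives. As a share of the UMIs of Hsp90aa1 and Hsp90ab1 together, Hsp90aa1 took 8.33 to 8.86% in cold and 30.0 to 35.8% in warm endothelial-like cells, and 10.9 to 18.7% and 40.5 to 45.3% in macrophage-like cells. In proximal tubule-like cells these shares were 28.4 to 31.9% and 30.9 to 35.4%, so the ranges overlapped there.

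Among the constitutive members, calls outside the immune-like classes were limited to Hspd1 in distal/connecting-like cells (0.61 ± 0.178, adjusted p = 0.0372, called in 5 of 12 alternatives). Hspa8 rose in macrophage-like cells from 1256, 905 and 1217 to 3146, 1834 and 3187 CPM (1.34 ± 0.226, adjusted p = 0.00179), in T-like cells from 1258, 905 and 1089 to 2738, 1975 and 2855 CPM (1.28 ± 0.203, adjusted p = 0.00681) and in B-like cells by 1.04 ± 0.266 (adjusted p = 0.044, called in 6 of 12 alternatives; all edgeR). Hsp90ab1 rose in macrophage-like cells from 584, 602 and 683 to 1203, 1008 and 1459 CPM (1.04 ± 0.198, adjusted p = 0.00486, edgeR, but 0.0567 without cold replicate 2). Hsp90ab1 in T-like cells rose by 1.01 ± 0.212 (adjusted p = 0.0306, called in 7 of 12 alternatives). Hspa8 in proximal tubule-like cells was at 2106, 1807 and 2676 CPM in cold and 2041, 1620 and 2333 CPM in warm libraries, and Hspe1 was called in 0 of 9 classes by edgeR (0 at an unadjusted p under 0.05, and 0 by DESeq2), with log2 fold changes of -0.28 to 0.83.

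Summed proximal tubule markers, which endothelial cells lack, were at 2020 to 2980 CPM in cold and 2400 to 3770 CPM in warm endothelial-like cells, and the endothelial markers at 11800 to 17500 and 12800 to 17500 CPM. Both ranges overlap between the digestions. In distal/connecting-like cells the proximal tubule markers were at 3840 to 8390 CPM in cold and 11800 to 15300 CPM in warm libraries, without overlap. The part of other cells' RNA in the folds of these classes, that of Hspd1 in distal/connecting-like cells among them, was not tested.

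**Figure D3:**
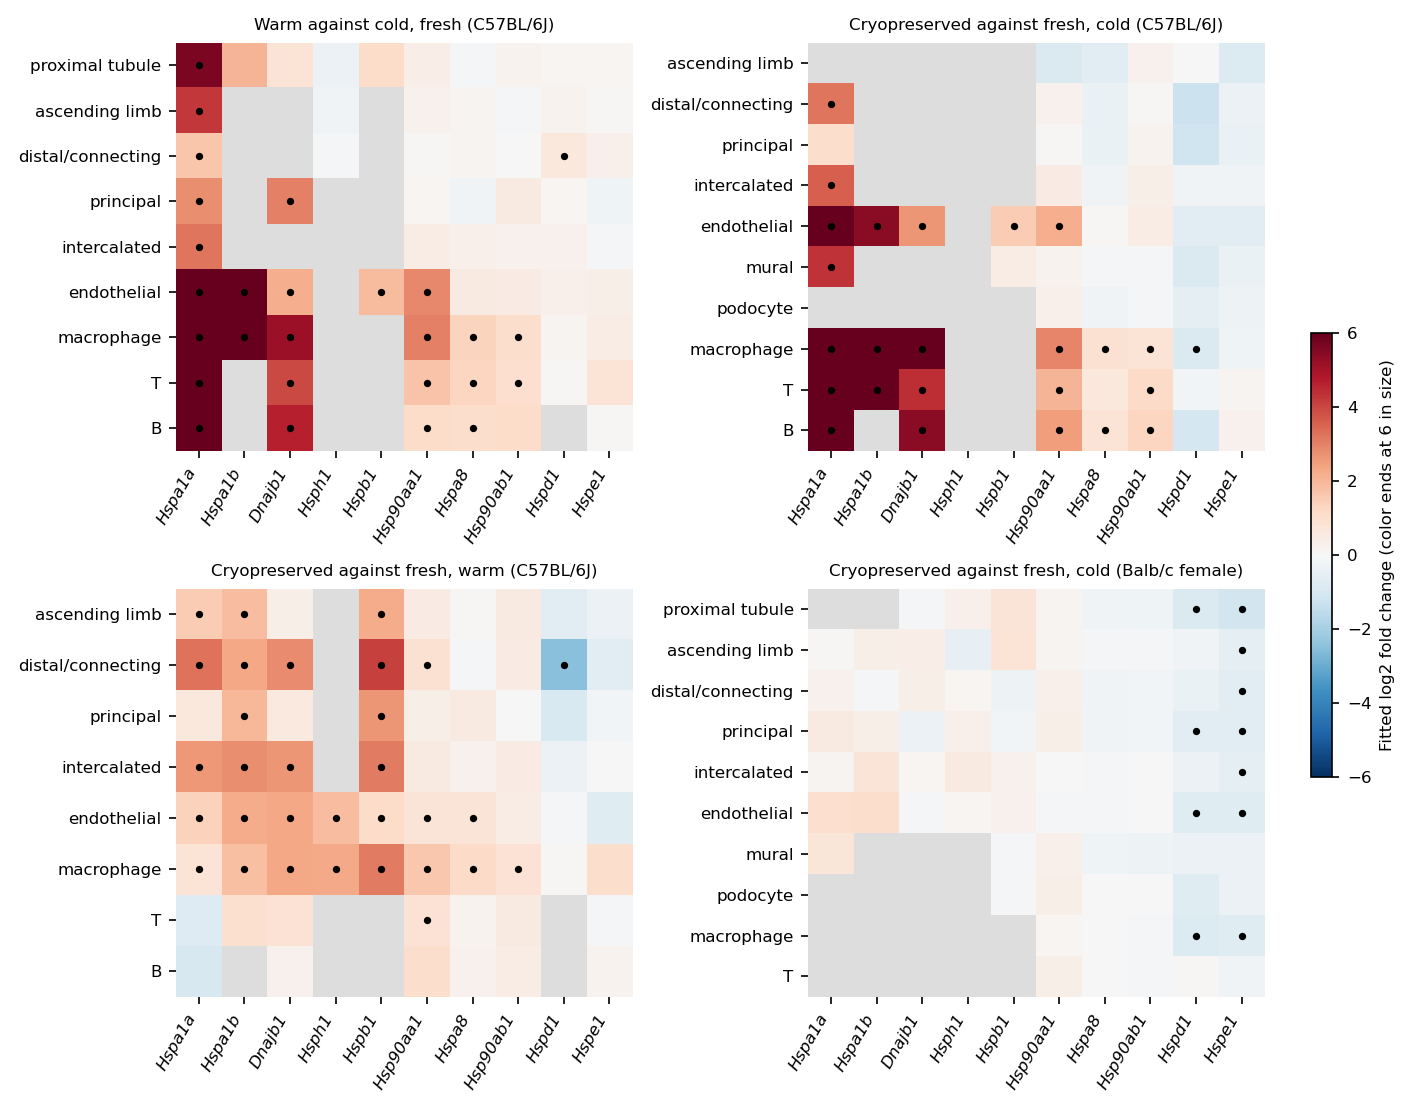
Fitted log2 fold change (color, ending at 6 in size) of the 10 members by class for warm against cold fresh cells and for cryopreserved against fresh cells of 3 kinds, with a dot where the test was passed and gray where the filter on low counts was not. Dots gather on Hspa1a, Hspa1b, Dnajb1 and Hsp90aa1 in the C57BL/6J panels and on Hspd1 and Hspe1, lower after storage, in the Balb/c panel, and the fits of pairs with 0 to 3 UMIs in a group depend on the prior count.

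After cryopreservation of cold-dissociated C57BL/6J cells 3 to 5 inducible members were higher in endothelial-like, macrophage-like, T-like and B-like cells, Hspa1a was the call in mural-like, distal/connecting-like and intercalated-like cells, and no inducible member was called in podocyte-like, ascending limb-like and principal-like cells. Of the inducible members only 1 passed the filter in podocyte-like and in ascending limb-like cells, and 2 in principal-like cells. The cryopreserved ascending limb-like class held 40 barcodes, 4 to 24 in a library. Proximal tubule-like cells fell to 15 barcodes in the 3 libraries, from 6318 fresh, and were not tested. In the other 10 classes, 24 of 100 pairs were higher (19 of 60 inducible and 5 of 40 constitutive) and 1 was lower, against 3.33% and 3.88% of all pairs, and 67 of the 100 passed the filter. Of the 24 calls 21 were made under every alternative. This comparison and that of warm with cold fresh cells share the cold fresh libraries, so their values stand side by side and are not independent.

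Hspa1a in cold cryopreserved endothelial-like cells was at 1685, 1594 and 2246 CPM (8.02 ± 0.312 above cold fresh, adjusted p = 1.46e-11, edgeR). In macrophage-like cells it reached 3710, 4395 and 5253 CPM, 5341 against 3 UMIs (ratio 1050, interval 361 to 5120). In T-like cells the ratio was 215 (interval 38.2 to 8510) and in B-like cells, with 0 UMIs in fresh libraries, the level was at least 84.2-fold higher. These cells had been digested on ice, and every cryopreserved library of these classes stood above every fresh library.

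Hspa1a also rose in mural-like cells, from 30.9, 19.7 and 0 to 187, 668 and 270 CPM (4.33 ± 0.737, adjusted p = 0.00346), in distal/connecting-like cells to 153, 304 and 301 CPM (3.20 ± 0.414, adjusted p = 8.14e-06) and in intercalated-like cells to 263, 491 and 304 CPM (3.60 ± 0.391, adjusted p = 2.07e-05, all edgeR). In podocyte-like cells 0 UMIs of Hspa1a in fresh libraries stood against 36 after cryopreservation, at least 27.8-fold higher. The filter was not passed there, and without it the gene was called (adjusted p = 2.25e-13, edgeR). In principal-like cells the values were 174, 191 and 368 CPM against 104, 100 and 124 CPM, without a call.

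Dnajb1 rose after cryopreservation in endothelial-like cells to 159, 182 and 317 CPM (2.64 ± 0.317, adjusted p = 1.69e-05) and in macrophage-like cells to 538, 882 and 1298 CPM (6.04 ± 0.432, adjusted p = 3.31e-08, both edgeR). Hsp90aa1 rose to 408, 455 and 511 CPM in endothelial-like cells (2.17 ± 0.212) and to 686, 831 and 1067 CPM in macrophage-like cells (2.94 ± 0.272), and the groups did not overlap. Both genes also rose in T-like and B-like cells. Hspb1 in endothelial-like cells was at 924, 1262 and 2557 CPM (1.52 ± 0.289, adjusted p = 0.00215, edgeR), and Hspa1b rose from 2 to 129 UMIs there (ratio 48.8, interval 13.2 to 408).

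Constitutive calls stood again in immune-like cells. Hsp90ab1 rose in macrophage-like cells to 903, 987 and 1280 CPM (0.83 ± 0.189), in T-like cells by 1.15 ± 0.23 and in B-like cells by 1.28 ± 0.246. Hspa8 rose in macrophage-like cells to 2103, 1747 and 2194 CPM (0.91 ± 0.168, adjusted p = 0.000984, edgeR) and in B-like cells by 0.84. Hspd1 in macrophage-like cells was the lower call, from 110, 111 and 146 to 79.1, 51.5 and 65.3 CPM (-0.86 ± 0.255, adjusted p = 0.0311, edgeR, called in 5 of 12 alternatives). Summed proximal tubule markers in endothelial-like cells were at 96.3 to 121 CPM after cryopreservation against 2020 to 2980 CPM fresh, and the endothelial markers at 11100 to 15000 CPM. The part of the lost proximal tubule RNA in these folds was not tested. In fresh cold proximal tubule-like cells Hspa1a was at 0.375 to 3.34 CPM.

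By DESeq2 24 pairs were higher and 0 lower. Without the filter Hspb1 (3.14, adjusted p = 0.00141) and Hsph1 (2.58, adjusted p = 0.000248) were called as well in macrophage-like cells, and Hspa1b in intercalated-like (2.53, adjusted p = 0.000118) and B-like cells (7.03, adjusted p = 3.59e-10, all edgeR). With the tag of the file headers as a replicate block, the paired fit called 27 pairs higher and 3 lower. It added Hsp90ab1 (0.48, adjusted p = 0.000667) and Hspe1 (-0.55, adjusted p = 0.0206) in endothelial-like cells, Hspa1a (1.10, adjusted p = 0.0352) and Hspd1 (-1.14, adjusted p = 0.0498) in principal-like cells and Hspa8 in T-like cells (0.64, adjusted p = 0.0152, all edgeR).

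After warm digestion, cryopreserved cells held more of the inducible members than fresh cells in 7 of 8 classes, with 1 to 6 of the 6 members called. Of 80 pairs in 8 classes, 30 were higher (27 of 48 inducible and 3 of 32 constitutive) and 1 was lower, against 5.62% and 4.91% of all pairs, 69 of the 80 passed the filter, and 18 of the 30 calls were made under every alternative. Hspa1a in endothelial-like cells went from 4457, 2758 and 3784 to 9855, 7299 and 8252 CPM (1.36 ± 0.147, adjusted p = 2.19e-05, edgeR).

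Hspb1 was called in 6 of these 8 classes. It went from 19.1, 21.0 and 31.6 to 571, 257 and 429 CPM in distal/connecting-like cells (4.09 ± 0.396, adjusted p = 4.35e-06) and from 14.9, 46.9 and 57.6 to 129, 291 and 526 CPM in macrophage-like cells (3.10 ± 0.503, adjusted p = 0.00162, both edgeR). In endothelial-like cells it went from 2174, 1889 and 2247 to 3037, 4490 and 4844 CPM (1.12 ± 0.145). The distal/connecting-like and macrophage-like classes, in which Hspb1 was low in fresh cells, thus held it in every warm cryopreserved library.

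Hsph1 passed the test here as well, in endothelial-like cells from 27.4, 22.9 and 36.8 to 57.6, 87.0 and 120 CPM (1.84 ± 0.335, adjusted p = 0.00216) and in macrophage-like cells from 44.8, 35.1 and 64.0 to 60.7, 170 and 337 CPM (2.29 ± 0.518, adjusted p = 0.0119, both edgeR), the latter with overlapping groups. Hspa8 rose in endothelial-like (0.77 ± 0.13) and macrophage-like cells (1.17 ± 0.201), and Hsp90ab1 in macrophage-like cells (0.89 ± 0.202). Hspd1 in distal/connecting-like cells was lower, from 436, 359 and 446 to 76.2, 98.9 and 26.8 CPM (-2.52 ± 0.384, adjusted p = 0.000266, edgeR), on 8 UMIs after storage. Summed proximal tubule markers in that class were at 11800 to 15300 CPM in warm fresh and 158 to 267 CPM in warm cryopreserved libraries. Their part in the folds of Hspd1 and Hspb1 there was not tested. Without the filter Hsph1 was called in intercalated-like cells too (1.59, adjusted p = 0.0249, edgeR).

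The paired fit with the replicate block called 33 pairs higher and 4 lower here. The added lower calls were Hspe1 in endothelial-like cells (-0.80, adjusted p = 0.0149) and Hspa1a in T-like (-0.79, adjusted p = 0.0328) and B-like cells (-1.11, adjusted p = 0.0202), and the added higher calls Hsp90ab1 in endothelial-like (0.44, adjusted p = 0.0192), Hspe1 in macrophage-like (0.93, adjusted p = 0.0129) and Hsp90aa1 in B-like cells (0.96, adjusted p = 0.0412, all edgeR).

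The effect of cryopreservation differed between the digestions in 7 of 80 pairs (interaction term of edgeR), all 7 lower with warm digestion, against 0.306% lower and 0.0991% higher over all pairs.

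Among cryopreserved cells, warm-digested against cold-digested libraries had 32 of 90 pairs higher (23 of 54 inducible, 9 of 36 constitutive) and 0 lower (0 at an unadjusted p under 0.05, and 0 by DESeq2, which called 24 higher), against 5.11% and 1.1% of all pairs, 69 of the 90 passed the filter, and 20 of the 32 calls were made under every alternative. Hspa1a in endothelial-like cells differed by 2.29 ± 0.157 and in macrophage-like cells by 0.88 ± 0.166 on the log2 scale. Hspa8 was higher in 5 classes, with 5256, 4635 and 6359 CPM in warm against 2103, 1747 and 2194 CPM in cold cryopreserved macrophage-like cells (1.58 ± 0.153, adjusted p = 3.87e-07, edgeR). Hspe1, which encodes the lid of the mitochondrial chamber, was called in macrophage-like cells, at 334, 710 and 1258 against 166, 230 and 376 CPM (1.76 ± 0.331, adjusted p = 0.000925, edgeR), with overlapping groups. DESeq2 called Hspe1 in 0 classes, Hspa8 in 3 and 4 constitutive pairs in all.

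In the Balb/c female experiment cryopreservation of cold-dissociated cells went with lower levels of the mitochondrial pair. Of 100 pairs in 10 classes 0 were higher by edgeR and by DESeq2 (10 at an unadjusted p under 0.05, up to 3 with a library left out, and 2 without the filter) and 11 were lower, all of them Hspd1 or Hspe1, against 3.02% and 5.27% of all pairs, and 81 of the 100 passed the filter. Hspe1 in proximal tubule-like cells fell from 1244, 1424 and 1193 to 740, 701 and 726 CPM (-1.11 ± 0.114, adjusted p = 4.8e-07) and Hspd1 from 728, 743 and 726 to 467, 459 and 559 CPM (-0.86 ± 0.112, adjusted p = 9.63e-06, both edgeR). In both genes the groups did not overlap, and these calls and that of Hspd1 in principal-like cells (-0.66 ± 0.141) were the 3 of the 11 made under every alternative.

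Hspe1 was also lower in endothelial-like, ascending limb-like, distal/connecting-like, principal-like, intercalated-like and macrophage-like cells (-0.74 to -0.56), and Hspd1 in endothelial-like (-0.74) and macrophage-like cells (-0.80). The mitochondrial folding pair thus made up every edgeR call within the classes. In sums over all barcodes, which mix the classes, Hspd1 (-1.70 ± 0.106), Hspe1 (-1.87 ± 0.131) and Hspa8 (-0.65 ± 0.137) were lower and Hspa1a (1.23 ± 0.214), Hspa1b (0.82 ± 0.169) and Hspb1 (1.32 ± 0.129) higher, against 29.9% and 27.9% of all genes.

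Proximal tubule-like barcodes numbered 6734 in the fresh and 319 in the cryopreserved libraries, and other markers moved with the mitochondrial pair. Summed proximal tubule markers were at 28800 to 30100 CPM in fresh and 20400 to 23100 CPM in cryopreserved proximal tubule-like cells, and at 2300 to 4110 and 252 to 553 CPM in endothelial-like cells. Mitochondrial genes took 31.3 to 33.6% of the UMIs of a fresh and 34.6 to 34.9% of a cryopreserved library, against 26.1 to 31.7% in cold fresh, 13.6 to 15.4% in cold cryopreserved and 15.0 to 20.4% in cold methanol-fixed C57BL/6J libraries. Their part in the folds of Hspd1 and Hspe1 was not tested.

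The calls in the classes depended on single libraries. Without fresh replicate 2 the lower calls were 3 and without cryopreserved replicate 2 they were 6, and by DESeq2 7. The effect of cryopreservation in these cells differed from that in cold-dissociated C57BL/6J cells in 11 of 90 pairs, all 11 lower in Balb/c, against 0.288% lower and 0.139% higher over all pairs (interaction term of edgeR).

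Hspa1a in Balb/c female endothelial-like cells was at 13.7, 13.2 and 54.1 CPM fresh and 69.5, 60.7 and 30.1 CPM cryopreserved (1.00 ± 0.432, adjusted p = 0.286, edgeR), with overlapping groups. It was called under the stricter gate (1.68, adjusted p = 0.0196) and without fresh replicate 3 (1.95, adjusted p = 0.0116). In macrophage-like cells Hspa1a was at 0, 0 and 2.21 CPM fresh and 128, 206 and 18.8 CPM cryopreserved, 1 against 110 UMIs (ratio 137, interval 24.0 to 5440). Hspa1b was there at 9.05, 2.97 and 0 CPM fresh and 104, 183 and 15.1 CPM cryopreserved. Neither passed the filter on low counts, and without it both were called. The endothelial-like levels after storage stayed far below the 1594 to 2246 CPM of Hspa1a in the C57BL/6J cells. Dnajb1 and Hsp90aa1 in Balb/c female endothelial-like cells differed by -0.14 and -0.05 and were not called.

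Most calls after methanol fixation were of constitutive members. In cold-dissociated cells 11 of 110 pairs in 11 classes were higher and 11 lower, against 11.1% and 12.2% of all pairs, and 62 of the 110 passed the filter. Of the 11 higher pairs 10 were constitutive, Hspe1 in 9 classes and Hspd1 in distal/connecting-like cells, and the other was Hspb1 in proximal tubule-like cells (1.37 ± 0.347). Of the 11 lower pairs 10 were Hsp90ab1, in 10 classes, and the other was Hsp90aa1 in podocyte-like cells (-0.72 ± 0.252). Under every alternative 3 higher and 5 lower calls were made, and DESeq2 made 7 higher and 9 lower calls. Of the 62 pairs that passed the filter, the edgeR calls were a somewhat larger share than over all pairs, which was not tested.

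Hspe1 rose in endothelial-like cells from 197, 198 and 330 to 553, 706 and 643 CPM (1.36 ± 0.228, adjusted p = 0.000433) and in distal/connecting-like cells from 728, 706 and 695 to 1428, 1373 and 1403 CPM (0.92 ± 0.121, adjusted p = 2.03e-05, both edgeR). In proximal tubule-like cells it rose from 1320, 1285 and 1307 to 1640, 1627 and 1605 CPM (0.40 ± 0.0955, adjusted p = 0.00792, edgeR). The fixed and fresh libraries were separated in each of these classes. Summed proximal tubule markers were at 2020 to 2980 CPM in fresh and 4280 to 7200 CPM in fixed endothelial-like cells. In distal/connecting-like cells these markers were at 3840 to 8390 and 15200 to 17800 CPM. Proximal tubule-like cells held them at 23600 to 27400 and 21300 to 24600 CPM. Their part in the folds of Hspe1 was not tested.

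Hsp90ab1 fell in podocyte-like cells from 1270, 1561 and 1680 to 732, 652 and 734 CPM (-1.22 ± 0.173, adjusted p = 6.7e-05, edgeR) and in proximal tubule-like cells from 694, 720 and 749 to 473, 560 and 533 CPM (-0.38 ± 0.108, adjusted p = 0.0198, edgeR). The 8 other classes with a call lay between these or at -1.23 (B-like). Hspa8 was called in 0 of 11 classes by edgeR and by DESeq2 (1 at an unadjusted p under 0.05), but with the tag of the file headers as a replicate block the paired fit called it higher in endothelial-like (0.53, adjusted p = 0.00605) and distal/connecting-like cells (0.33, adjusted p = 0.0305), beside Hspd1 (0.65, adjusted p = 0.0465) and Hspb1 (-0.43, adjusted p = 0.0384, all edgeR) in endothelial-like cells, 14 higher and 12 lower calls in all. Hspa1a in methanol-fixed cold endothelial-like cells was at 0, 10.9 and 10.1 CPM, at the level of the fresh cells.

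After warm digestion methanol gave 3 higher and 8 lower calls of 70 pairs, of which 56 passed the filter, against 5.11% and 5.85% of all pairs. The share of higher calls was thus near that of all pairs. Hsp90ab1 was lower in 5 of 7 classes, in endothelial-like cells from 1489, 1255 and 1802 to 640, 556 and 670 CPM (-1.45 ± 0.196, adjusted p = 0.00131, edgeR). Hsp90aa1 was lower in endothelial-like (-1.64 ± 0.353) and proximal tubule-like cells (-0.55 ± 0.149), and Hspd1 in proximal tubule-like cells (-0.43 ± 0.11). Hspe1 was higher in distal/connecting-like (0.80 ± 0.138) and proximal tubule-like cells (0.32 ± 0.0924), and Dnajb1 in distal/connecting-like cells (1.45 ± 0.324). Summed proximal tubule markers in distal/connecting-like cells were at 11800 to 15300 CPM in fresh and 17400 to 20800 CPM in fixed libraries. Their part in these folds was not tested. With the replicate block the paired fit called 5 pairs higher and 9 lower, adding Hspa1a in distal/connecting-like (1.18, adjusted p = 0.000397) and Dnajb1 (2.40, adjusted p = 0.0158) and Hsp90ab1 (-0.94, adjusted p = 0.015, all edgeR) in intercalated-like cells.

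The kind of digestion could still be read from fixed cells. Warm against cold methanol-fixed libraries had 15 of 70 pairs higher and 0 lower (3 at an unadjusted p under 0.05, and 0 by DESeq2, which called 14 higher), against 1.86% and 0.805% of all pairs, 51 of the 70 passed the filter, and 11 of the 15 calls were made under every alternative. Hspa1a in endothelial-like cells was at 3380, 2768 and 5412 CPM in warm fixed libraries (8.49 ± 0.392 above cold fixed, adjusted p = 1.7e-09, edgeR), next to 4457, 2758 and 3784 CPM in warm fresh libraries. Hspa8 in macrophage-like cells was at 983, 938 and 1279 CPM in cold and 3525, 3449 and 4257 CPM in warm fixed libraries (1.88 ± 0.17, adjusted p = 2.74e-06, edgeR). These warm fixed classes were small, with 153 endothelial-like and 111 macrophage-like barcodes in 3 libraries. Without the filter Hspa1b was called too in endothelial-like (7.37), macrophage-like (6.81) and ascending limb-like cells (3.69), and Dnajb1 in endothelial-like cells (2.13).

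**Figure D4:**
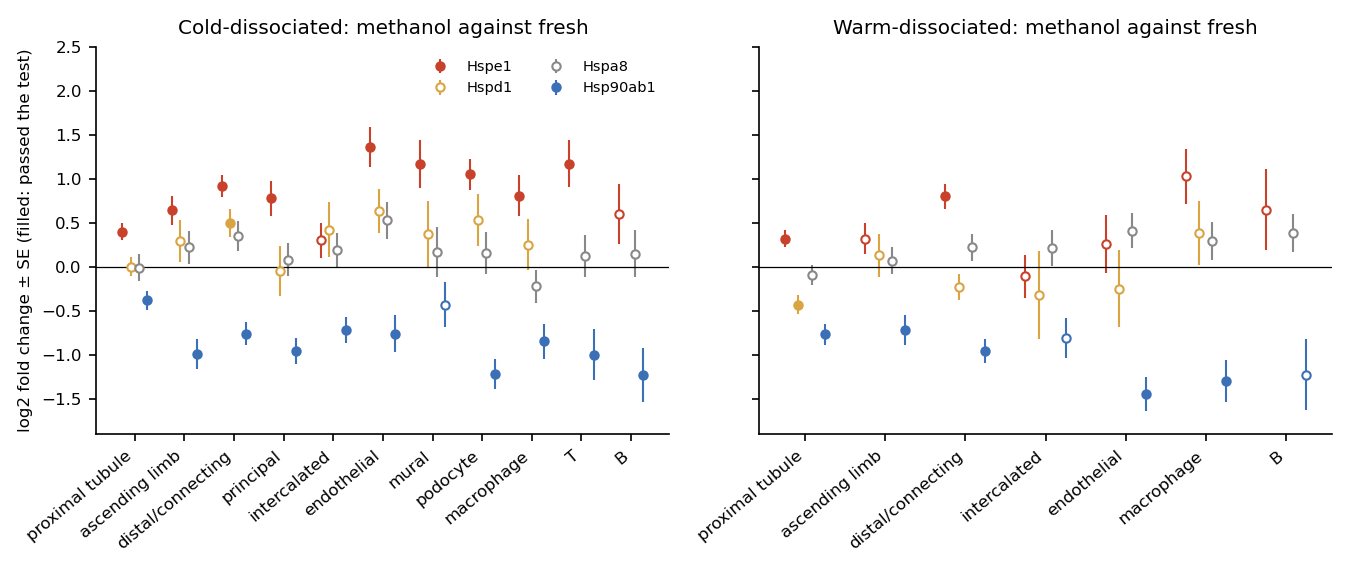
Log2 fold change ± SE of the 4 constitutive members in methanol-fixed against fresh cells, by class, for cold (left) and warm (right) dissociation, with filled points where the test was passed. Hspe1 lies above 0 in all 11 cold classes and Hsp90ab1 below 0 in all 11, while Hspa8 and Hspd1 lie nearer to 0.

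Nuclei held less of most inducible and constitutive members than cells did. Nuclei of SN_FANS_3x500g were compared with cold-dissociated fresh cells of the same experiment, with counts of exonic reads in cells and of intronic and exonic reads in nuclei, which differ between genes by how much of each is intron. In Balb/c females 71 of 80 pairs were lower and 0 higher, against 39.2% and 41.6% of all pairs, and in Balb/c males 38 of 70 were lower and 0 higher, against 29.4% and 45.0%. At an unadjusted p under 0.05, and by DESeq2, 0 were higher as well. The filter was passed by 72 and 38 pairs. In males the cells had a median of 343 to 688 UMIs per barcode, the lowest of the 10x groups as deposited. Their files list no mitochondrial genes, whereas the medians of the other cell groups include them.

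Hspe1 in female proximal tubule-like barcodes was at 1244, 1424 and 1193 CPM in cells and 16.7, 29.0 and 19.8 CPM in nuclei (-6.66 ± 0.203, adjusted p = 2.39e-11, edgeR). Hsp90ab1 was at 982, 1124 and 878 CPM in cells and 18.5, 24.3 and 21.7 CPM in nuclei (-6.31 ± 0.17), and Hspa8 at 1003, 1254 and 1161 CPM in cells and 38.5, 57.2 and 47.8 CPM in nuclei (-5.35 ± 0.169). The median over the 4 constitutive members in that class was -5.83, against -2.82 over the 6 inducible members and 0.15 over all genes. In female mural-like barcodes it was -5.47, against -6.12 over the 2 inducible members tested. The inducible median, of 1 or 2 members, was also the lower in male podocyte-like, endothelial-like, distal/connecting-like, principal-like and intercalated-like barcodes. In the other classes the constitutive median was the lower.

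Hsph1 stood apart from the other members. In female proximal tubule-like barcodes it was at 29.8, 47.3 and 37.0 CPM in cells and 36.8, 31.5 and 38.6 CPM in nuclei, with overlapping groups, although the fit, scaled by TMM, gave -0.89 ± 0.174 (adjusted p = 0.000464, edgeR). Across the 6 female classes where it passed the filter it ranged from -1.39 to 0.39, with 5 lower, whereas Hsp90ab1 ranged from -6.31 to -5.09, Hsp90aa1 from -6.59 to -4.36, Hspe1 from -6.66 to -4.76 and Hspd1 from -4.74 to -2.66. Hsph1 has 14824 intronic bases, more than any other member, and the single-exon genes Hspa1a (-3.63 to -2.06) and Hspa1b (-4.10 to -1.64) have 0. Hspb1, with 614 intronic bases, ranged from -7.63 to -3.87, Hspa8, with 4803, from -5.65 to -4.0 and Dnajb1, with 1257, from -3.37 to -1.87. Hsp90aa1 has 8193 intronic bases, Hspd1 7767, Hsp90ab1 2498 and Hspe1 1702. The part of intron length in these folds was not tested. The male values had the same order for Hsph1 (-1.22 to -0.68) and Hspe1 (-4.67 to -1.65).

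**Figure D5:**
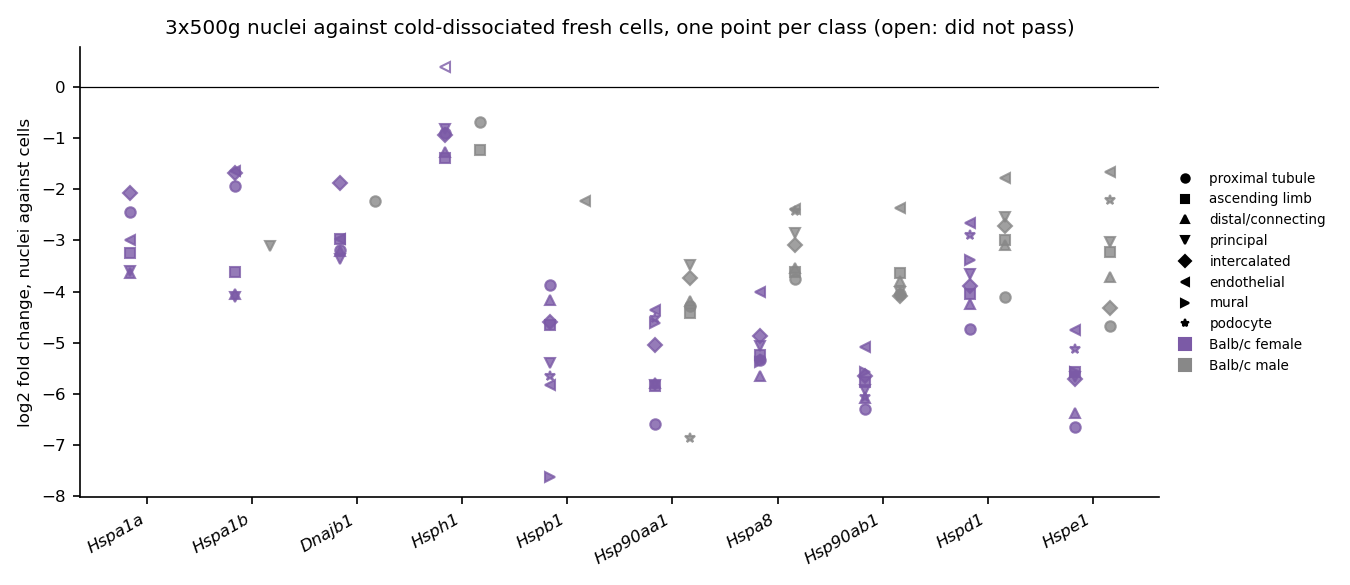
Log2 fold change of nuclei (SN_FANS_3x500g) against cold-dissociated fresh cells for each member, a point for each class that passed the filter, Balb/c female in purple and male in gray. Hsph1 lies between -1.39 and 0.39, while Hsp90ab1 of the females lies between -6.31 and -5.09.

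The 3 nuclei workflows differed in these members too. SN_FANS_1x2000g against SN_FANS_3x500g had 27 of 80 pairs higher (23 of 32 constitutive, 4 of 48 inducible) and 2 lower, against 10.3% and 5.14% of all pairs, and 53 of the 80 passed the filter. Of the 27 higher calls 18 were made under every alternative. Hspa8 was higher in 7 of 8 classes, in endothelial-like nuclei from 63.3, 51.1 and 64.9 to 124, 135 and 169 CPM (1.29 ± 0.143, adjusted p = 8.55e-05, edgeR), and Hspe1 rose there by 1.89 ± 0.253. The 2 lower calls were Hsph1, in proximal tubule-like (-0.45 ± 0.119) and ascending limb-like nuclei (-0.47 ± 0.145). Of these 2 calls 0 were made under every alternative, and 0 were left without SN_FANS_3x500g replicate 1 or 3 or SN_FANS_1x2000g replicate 2 or 3.

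SN_sucrose against SN_FANS_3x500g had 17 of 80 pairs higher and 5 lower, against 13.1% and 10.6% of all pairs. As 49 of the 80 passed the filter, the share of lower calls was near that of all pairs. Hsp90ab1 made up 7 of the higher calls, in 7 of 8 classes, and rose in intercalated-like nuclei from 52.6, 55.7 and 39.3 to 183, 233 and 171 CPM (2.11 ± 0.164, adjusted p = 2.47e-06, edgeR). All 5 lower calls were Hsph1, which fell in proximal tubule-like nuclei from 36.8, 31.5 and 38.6 to 21.9, 22.2 and 18.1 CPM (-0.77 ± 0.134, adjusted p = 0.00336, edgeR), and 2 of the 5 were made under every alternative. Calls of constitutive members were thus higher in both workflows than in SN_FANS_3x500g. The share of free RNA in these nuclei was not tested.

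Intact female kidneys, frozen without dissociation, were compared with cold suspensions of the same experiment. Of the 10 members 1 was higher and 0 lower in intact kidneys than in cold suspensions by edgeR and by DESeq2 (3 and 0 at an unadjusted p under 0.05), against 12.1% and 7.91% of all genes. Hspa1b was at 21.0, 19.5 and 22.0 CPM in cold suspensions and 24.8, 29.8 and 46.6 CPM in intact kidneys (0.70 ± 0.187, adjusted p = 0.0265, edgeR), a call lost without cold replicate 1 (adjusted p = 0.0758) or cold replicate 2 (0.0893). Hspa1a was at 11.9, 10.7 and 10.9 CPM in cold suspensions and 10.7, 11.5 and 15.0 CPM in intact kidneys (0.16, adjusted p = 0.419, edgeR), with overlapping groups. The median log2 fold change over the inducible members was 0.27.

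Hsph1 (94.1, 126 and 122 against 114, 154 and 192 CPM, 0.43, adjusted p = 0.0957) and Hspb1 (0.38, adjusted p = 0.0733) did not pass. Hspa8 was at 339, 407 and 407 CPM in cold suspensions and 314, 354 and 349 CPM in intact kidneys (-0.17, adjusted p = 0.162, edgeR). The share of Hspa1b in the HSP70 pair was 73.7 ± 2.84% in intact kidneys and 66.4 ± 1.58% in cold suspensions (exact two-sided permutation p = 0.1), and that of Hsp90aa1 in its pair 17.1 ± 1.15% and 16.5 ± 0.691% (exact p = 0.6). In intact kidneys 10 of 12 endothelial markers were higher, with sums of 788 to 895 against 552 to 593 CPM. Lower were 8 of 9 distal and connecting tubule markers (2450 to 2570 against 3490 to 4030 CPM), 9 of 12 B cell, 6 of 12 T cell and 5 of 10 podocyte markers. Of the macrophage markers 10 of 11 were lower and 1 higher, with overlapping sums (171 to 185 against 158 to 196 CPM). Of 10 mural markers 6 were lower and 2 higher, of 9 principal cell markers 4 lower and 1 higher, of 12 proximal tubule markers 3 lower and 4 higher, of 12 intercalated cell markers 2 lower, of 10 NK cell markers 3 lower and of 9 ascending limb markers 1 higher. The part of these markers' cells in the members' values was not tested. In intact male Balb/c kidneys, which had no suspension sequenced in bulk beside them, Hspa1a was at 4.32, 3.87 and 4.09 CPM and Hspa1b at 8.50, 9.88 and 8.59 CPM.

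Of 71 other chaperone genes listed beside the members, 67 were tested in bulk and 5 were higher with warm digestion, near the 5.42% of all genes. They included the J-proteins Dnajb4, from 31.2, 33.3 and 34.1 to 62.8, 59.2 and 62.0 CPM (0.88 ± 0.083, adjusted p = 4.31e-05, edgeR), and Dnaja1 (0.63 ± 0.11), both partners of HSP70, and Bag3, which exchanges its nucleotide (0.44 ± 0.124). The others, Dnajb9 and Bag4, were named after their values were seen. In fresh cells 6 of 287 tested pairs were higher with warm digestion, near the 2.8% of all pairs, with Dnaja1 in 4 classes. In intact kidneys against cold suspensions 7 of 69 were higher and 2 lower, against 12.1% and 7.91% of all genes, among them the small heat shock protein Cryab, from 45.0, 42.3 and 49.7 to 93.9, 100.3 and 187 CPM (1.48 ± 0.223, adjusted p = 0.00144, edgeR). The small heat shock protein gene Hspb2 (0.97 ± 0.22) and Hspa2 (0.81 ± 0.111) were higher as well, and the lower pair was Hspb7 (-0.56 ± 0.133) and Hspb8 (-0.38 ± 0.109).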

How the data were processed

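The 10x libraries are deposited as UMI counts per gene and barcode. Per the labels and the study's methods, the authors aligned them with Cell Ranger 2.1.1 to mm10, separated cell barcodes from empty droplets (EmptyDrops) and filtered genes and barcodes. Reads were counted over exons in cells and over exons and introns in nuclei. For bulk RNA-seq, made with kits that deplete ribosomal RNA or select poly(A), the authors used Trim Galore, TagDust2, STAR 2.6.1a (GRCm38), Picard and featureCounts and deposited read counts per gene. The strand setting of that counting is not given in the sources used here, so reads of overlapping genes on opposite strands cannot be told apart, and Hspa1a and Hspa1b, which share windows, are uncertain between each other.

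UMIs were summed per library and marker-gated class, without mitochondrial genes, which the files of nuclei and of Balb/c male cells do not list. Sums and bulk counts were tested with edgeR 4.0.16 (quasi-likelihood, TMM, filterByExpr) in R 4.3.3, with Benjamini-Hochberg adjustment over all genes of a class and a threshold of 0.05. Each fit used the compared groups only, and no covariate. Ratios with 3 or fewer UMIs in a group are of summed UMIs with exact 95% intervals, and a group of 0 was given a floor of 3 counts. These intervals and floors cover counting error only. Fitted log2 fold changes of such genes depend on the prior count. Tests were checked on simulated data, and doublets were not called.

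The members and lists were chosen with earlier results of these data known, and the members were named in every comparison. Other chaperones were counted as lists, and for each bulk comparison up to 3 called genes were named upward and 3 downward, by size of the log2 fold change, and 5 genes most like Hspa1a were named. Others named were chosen after their values were seen. Alternatives were DESeq2 1.42.0, RLE size factors, no filter, a stricter gate (4 markers, a lead of 3), mitochondrial genes kept, a log2 fold change of at least 1 and each library left out in turn. The replicate block and the tests of cryopreservation by experiment were added after seeing the data. The block used the tags of the C57BL/6J file headers, whose meaning is not given in the sources used here. Fits without the block are the ones reported unless the block is named. Stored and fresh libraries were aliquots of the same suspensions per the study's methods, so the paired fit is given beside those comparisons, with the tag taken to mark the suspension. All 3 same-tag correlations of deviations were over 0.1 for methanol-fixed against fresh cells (lowest 0.11), and none was for cryopreserved against fresh cells (-0.06 to 0.10). Warm and cold libraries share only a tag, with at least 1 correlation under 0.1 in each comparison. Balb/c and bulk files share no tag. The 3 libraries of a group came from separate mice, and fresh, cryopreserved and fixed C57BL/6J libraries of a digestion were aliquots.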

Additional observations from a re-analysis of the deposited data

Results flagged for a closer look

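The effect of cryopreservation differed between cold and warm digestion in 7 of 48 inducible and 0 of 32 constitutive pairs of member and class (interaction term of edgeR, adjusted p at most 0.05). All 7 were lower with warm digestion, against 0.306% lower and 0.0991% higher over all pairs. For Hspa1a the interaction was -6.66 (log2) in endothelial-like cells (adjusted p = 1.35e-09), -9.11 in macrophage-like (1.55e-10), -8.08 in T-like (0.00447) and -10.5 in B-like cells (0.00759). For Hspa1b it was -6.01 in macrophage-like cells (0.00117), and for Dnajb1 -3.69 in macrophage-like (0.0308) and -5.00 in B-like cells (0.0283). Cold fresh cells held 0 to 3 UMIs of Hspa1a or Hspa1b in these classes apart from the endothelial-like class, so those values depend on the prior count and are no bounds. Such pairs passed the filter only through the other groups, and a higher interaction was hardly open to them. Their direction is therefore set in part by the filter. In plain levels, endothelial-like Hspa1a was at 5.42 to 12.3 CPM in cold fresh, 1594 to 2246 in cold cryopreserved, 2758 to 4457 in warm fresh and 7299 to 9855 CPM in warm cryopreserved libraries. Of the 7 calls 5 were made under every alternative.

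A comparison added after seeing the data set the effect of cryopreservation in Balb/c female cells against that in cold-dissociated C57BL/6J cells. It differed in 11 of 90 pairs, all lower in Balb/c, against 0.288% lower and 0.139% higher over all pairs, and 6 of the 11 were called under every alternative. For Hspa1a it was -7.04 in endothelial-like (adjusted p = 1.3e-05, edgeR), -2.90 in distal/connecting-like (0.00443) and -3.49 in intercalated-like cells (0.00601). For Dnajb1 it was -2.78 in endothelial-like (0.00411), -6.30 in macrophage-like (9.71e-06) and -3.92 in T-like cells (0.0185). For Hsp90aa1 it was -2.22 in endothelial-like (6.43e-05), -2.86 in macrophage-like (9.71e-06) and -1.85 in T-like cells (0.0185). Hspa8 in macrophage-like cells (-0.99, 0.0283) and Hsp90ab1 in T-like cells (-1.33, 0.0203) differed as well. The experiments differ in strain, genotype, sex, age, chemistry (version 2 and 3), storage time (6 and 2 weeks), spin (400 and 1200 g) and batch. These factors cannot be told apart.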

How the results depend on the processing

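Of the values of single pairs under the alternatives, 9951 kept their side of the threshold, 375 lost a call and 145 gained a call, and 0 calls changed direction. The alternatives gave the following counts of calls. With DESeq2, cryopreserved cold cells had 0 lower pairs, Balb/c cryopreserved cells 7 lower, methanol-fixed cold cells 7 higher, methanol-fixed warm cells 5 higher and sucrose nuclei 2 lower. Without the filter, intact kidneys had 2 higher, cold cryopreserved cells 3 lower, warm cryopreserved cells 3 lower, Balb/c cryopreserved cells 2 higher, and the cryopreservation effect differed by dissociation in 14 pairs. With the stricter gate, these were 0 lower (cold cryopreserved), 0 lower (warm cryopreserved), 1 higher and 4 lower (Balb/c cryopreserved), 6 higher (cold methanol), 1 higher (warm methanol) and 2 lower (sucrose). With a log2 fold change of at least 1 they were 0 higher (intact), 0 lower (cold cryopreserved), 1 lower (Balb/c cryopreserved), 5 higher and 2 lower (cold methanol), 1 higher and 3 lower (warm methanol), 0 lower (1x2000g) and 1 lower (sucrose). With the replicate block (libraries paired by the header tag), cold cryopreserved cells had 3 lower, warm cryopreserved cells 4 lower and warm methanol cells 5 higher. Between warm and cold libraries, which share only a tag, it gave 27 higher (fresh, with 3 calls gained and 3 lost), 37 higher (cryopreserved) and 14 higher (methanol), and every same-tag correlation was above those with other tags for methanol alone among these. Leaving out 1 library gave 0 to 3 higher and 0 to 1 lower for intact kidneys (3 higher without intact replicate 1, 0 higher without cold replicate 1 or 2, 1 lower without cold replicate 1), and 0 to 1 lower for cold cryopreserved cells (0 without fresh or cryopreserved replicate 2). For warm cryopreserved cells it gave 1 to 3 lower (2 without fresh replicate 1, 3 without cryopreserved replicate 3). For Balb/c cryopreserved cells it gave 0 to 3 higher (3 without fresh replicate 1 or 3 or cryopreserved replicate 3, 2 without fresh replicate 2) and 3 to 10 lower (3 without fresh replicate 2, 6 without cryopreserved replicate 2). For cold methanol cells it gave 5 to 14 higher (5 without fresh replicate 2 or methanol replicate 3, 6 without methanol replicate 2) and 6 to 11 lower (7 without fresh replicate 2 or methanol replicate 1, 6 without methanol replicate 2), and for warm methanol cells 2 to 4 higher and 4 to 10 lower (4 without fresh replicate 3, 5 without methanol replicate 2). The lower calls of 1x2000g nuclei became 0 to 2 (0 without SN_FANS_3x500g replicate 1 or 3 or SN_FANS_1x2000g replicate 2 or 3) and those of sucrose nuclei 2 to 5 (2 or 3 without any sucrose library or SN_FANS_3x500g replicate 1 or 3). The effect by dissociation held in 5 to 12 pairs (12 without warm fresh replicate 2) and that by experiment in 7 to 15 (7 without C57BL/6J fresh replicate 2 or Balb/c fresh replicate 2 or 3). The share of Hsp90aa1 in its pair in intact against cold libraries reversed to -0.051 percentage points without intact replicate 3 (-0.051 to 1.04 over the libraries left out). The cause was not tested. Depth limited the low members, with 0 to 3 UMIs of Hspa1a or Hspa1b in several cold fresh classes. No paired fit was run for bulk and Balb/c libraries, which share no tag.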

Other observations

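Hspa8 differed widely between the experiments. It was at 1536 to 2076 CPM in the 6 C57BL/6J bulk libraries and at 286 to 407 CPM in the 9 Balb/c bulk libraries, cold or intact, male or female. In proximal tubule-like cold fresh cells of the 10x libraries its mean was 2196 CPM in C57BL/6J, 1117 CPM in male and 1139 CPM in female Balb/c, while Hspe1 in the same sums was at 1304, 1260 and 1287 CPM. Strain, genotype (AFAPIL.1DEL in the C57BL/6J mice), age, batch and, for bulk, library kit and read length cannot be told apart. The exons of Hspa8 overlap the small nucleolar RNAs Snord14c, Snord14d and Snord14e on the same strand over 86, 86 and 90 bases.

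The balance of the HSP70 pair in UMIs differed between classes of the same warm fresh libraries. Hspa1b took 4.35 to 6.46% of the UMIs of Hspa1a and Hspa1b in endothelial-like, 3.77 to 5.42% in macrophage-like and 8.89 to 13.9% in proximal tubule-like cells, against 18.5 to 24.2% in ascending limb-like and 29.7 to 38.9% in distal/connecting-like cells. In cold fresh distal/connecting-like cells the share was 36.4 to 50.0% in C57BL/6J and 59.2 to 66.3% in Balb/c females. These are shares of uniquely counted UMIs, described without a test.

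Across the 18 C57BL/6J libraries of endothelial-like sums, the genes whose log2(CPM + 1) followed Hspa1a most closely among 8091 genes were Junb (Pearson r = 0.97), Fos (0.967), Ier5 (0.965), Hspa1b (0.962) and Fosb (0.953). Of the other members, Hspb1 had r = 0.909, Hsp90aa1 0.867, Dnajb1 0.819, Hspa8 0.515, Hsp90ab1 0.474, Hsph1 0.122, Hspd1 -0.269 and Hspe1 -0.484. The libraries fall into groups by treatment and share their depth, so this is a description and carries no p.

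In the other chaperones of the list, cryopreserved cells of both C57BL/6J digestions had Hspa5, the HSP70 of the endoplasmic reticulum, higher in 3 classes and lower in 1 (cold) and higher in 4 classes (warm), and methanol-fixed cold cells had Hsp90b1 and Ptges3 lower in 7 classes each. Over the whole list 8 pairs were higher and 4 lower of 257 tested after cold digestion and freezing (3.33% and 3.88% of all pairs), 9 and 6 of 176 after warm digestion and freezing (5.62% and 4.91%), and 15 and 26 of 310 in methanol-fixed cold cells (11.1% and 12.2%). These genes were chosen after their values were seen. In nuclei of Balb/c females 344 of 451 tested pairs of other chaperones were lower than in cells and 42 higher, against 39.2% and 41.6% of all pairs.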
